A study of Mus musculus with 6 samples.

Results

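The genes examined here encode the protein subunits of the mitochondrial ribosome. They were chosen by name: every row of the table whose Entrez ID maps to a mouse symbol that starts with Mrpl or Mrps followed by a digit. The rule found 77 of the 13426 genes, of which 48 are Mrpl genes, named for the large subunit, and 29 are Mrps genes, named for the small subunit. All 77 are protein-coding nuclear genes and lie on 17 chromosomes. Of 84 RefSeq symbols that fit the name, 6 pseudogenes and the protein-coding gene *Mrpl36* had no row and were not analysed here. The study sorted B cell progenitors of mouse bone marrow at the early large pre-B (LPre-B) stage, when the heavy chain locus is rearranged, and sequenced their RNA. The control (Ctrl) group carried *Upf1* Flox/Flox with Mb1 +/+, and the *Upf1*-cKO (cKO) group carried *Upf1* Flox/Flox with Mb1 Cre/+, with 3 libraries each that the study describes as independent biological replicates. Both groups therefore carried the floxed *Upf1* alleles, in which internal exons are flanked by loxP sites, and only the cKO group carried Cre, which is expressed in the B lineage from one copy of *Cd79a* (Mb1). Effects of Cre or of the altered *Cd79a* copy cannot be told apart from those of *Upf1* deletion in this comparison.

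Mitochondrial ribosomes translate the few proteins encoded on mitochondrial DNA, all of them core subunits of the respiratory chain and ATP synthase. Their ribosomal RNA is made in the mitochondrion, whereas every one of their proteins is encoded in the nucleus, made in the cytoplasm and imported, so both genomes must supply parts for one particle. Some of these proteins descend from bacterial ribosomal proteins and others occur only in mitochondrial ribosomes. UPF1 is an RNA helicase required for nonsense-mediated decay (NMD), the pathway that degrades transcripts with premature stop codons.

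The libraries held between 9732498 and 11006834 reads, and the 77 genes took 0.193 to 0.223% of them. Values are given below as normalised reads, the deposited reads scaled to an effective library size of 1e6, and fold changes are log2 differences of (value + 1), cKO minus Ctrl, with the standard error (SE) and adjusted p of limma. A gene was called lower or higher when its adjusted p over all 13426 genes was below 0.05. *Upf1* itself measured 260, 203 and 259 in Ctrl and 308, 283 and 300 in the libraries labelled cKO, with all 3 cKO libraries above all 3 Ctrl libraries (log2 fold change 0.31, SE 0.089, limma adjusted p = 0.00696). That call was lost with another variance model, with median centring and after removing a length and GC trend. The study reports that UPF1 protein was lost from early LPre-B cells of its cKO mice, a protein measurement and not one of these libraries. Because the deletion removes only some exons, a whole-gene value does not measure it, and the groups below are those of the labels. *Cd79a*, the gene that carries Cre, had fallen from 221 ± 11.4 to 73.3 ± 1.85 (SD, n = 3 each). Summed B lineage markers (12 of 12 with a row) ranged from 2207 to 2455 in Ctrl and from 2809 to 3021 in cKO. Summed neutrophil markers (10 of 10 with a row, 4 called higher) ranged from 15.2 to 124 in Ctrl and from 331 to 465 in cKO, with *S100a9* at 9.01 ± 11.2 in Ctrl and 93.8 ± 15.9 in cKO and *Prtn3* and *Ctsg* not called in either direction, and their part in the results was not tested. The sort left out cells stained for the lineage antigens CD3e, CD11b, CD11c, F4/80 or TER-119. The T and NK markers had 2 of 8 genes with a row, none of them a T cell receptor complex or coreceptor gene, and summed to between 1.17 and 1.59 in Ctrl and between 3.79 and 5.27 in cKO, with *Klrb1c* called higher and *Nkg7* not called. Their part in the results was not tested either, and the erythroid markers had no globin gene in the table.

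Of the 77 mitochondrial ribosomal protein genes, 40 were lower in the cKO libraries, 4 were higher and 33 passed the test in neither direction, against a background of 25.0% lower and 27.7% higher among all genes tested. The median log2 fold change of the 77 genes was -0.36, that of all genes was 0.01, and 62 of the 77 were below 0. All 3 cKO libraries lay below all 3 Ctrl libraries for 45 genes (28.0% of all genes did so) and above them for 5 genes (30.9% of all genes). The size of the shift depended on scaling. With each library scaled to its total reads, which moved the median of all genes to 0.19, 24 members were lower and 8 higher, against 14.4% lower and 38.5% higher among all genes, and the members' median was -0.17. With each library centred on its median, which moved the median of all genes to -0.10, 50 members were lower and 1 was higher, against 32.4% and 22.3%. The members' median lay below that of all genes under each of these scalings. As RNA was taken from sorted populations, less RNA per cell and fewer cells that express a gene cannot be told apart.

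**Figure D1:**
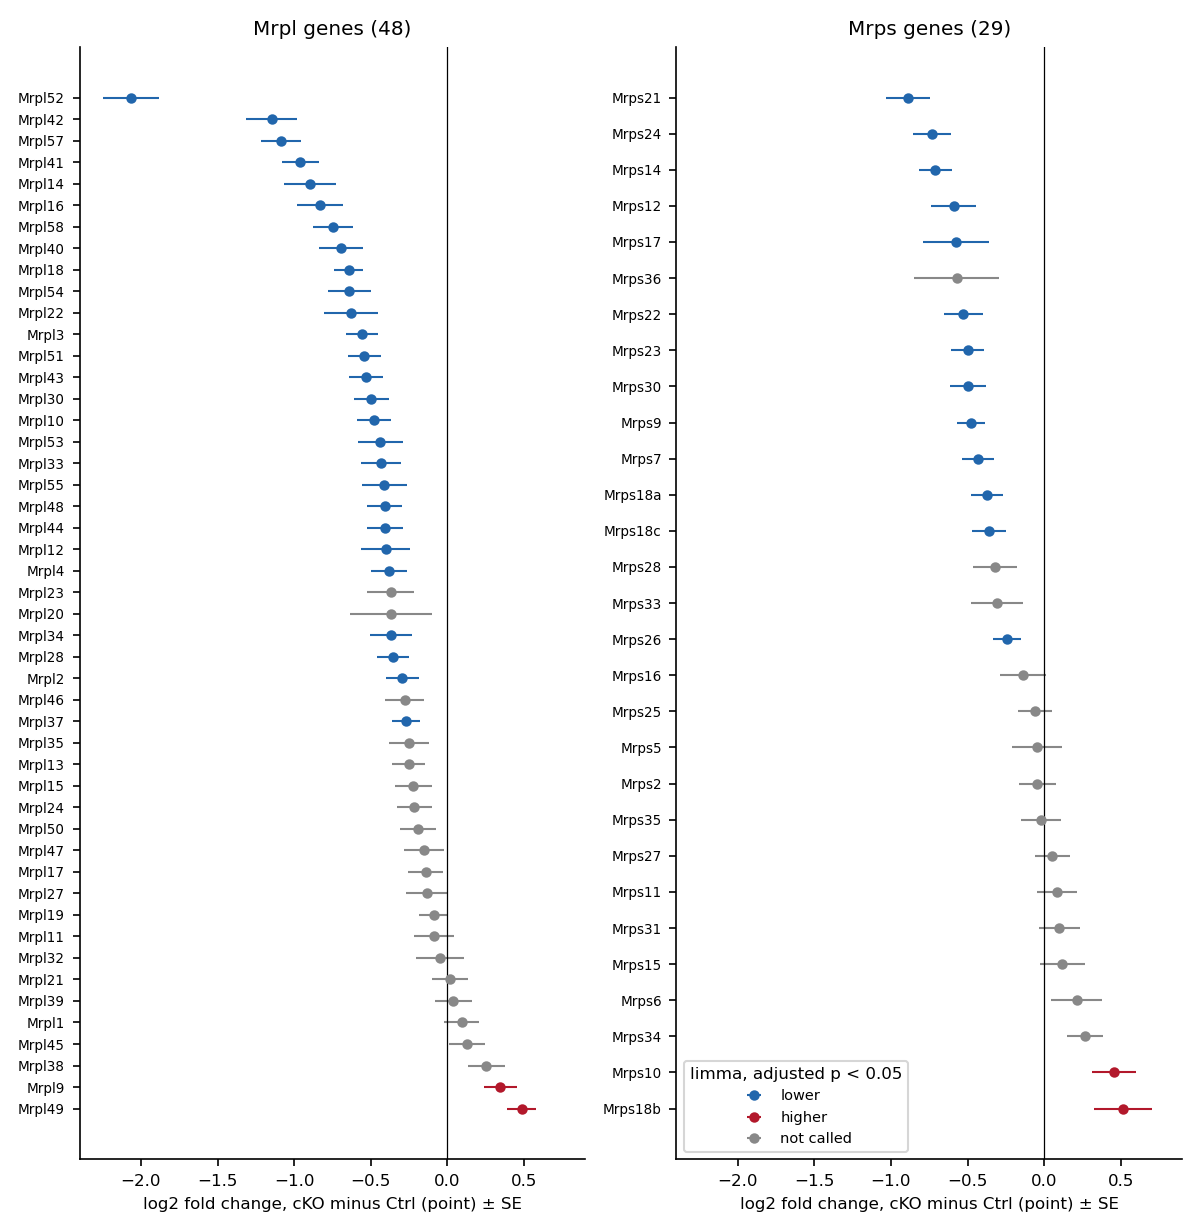
Log2 fold change (cKO minus Ctrl, horizontal axis) of the 48 Mrpl genes (left) and the 29 Mrps genes (right), each with its SE as a horizontal line; blue points were called lower, red points higher and grey points neither. Most points lie left of 0, from -2.07 for Mrpl52 to 0.52 for Mrps18b.

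Summed over the 77 genes, the level was 2107, 2436 and 2312 normalised reads in the Ctrl libraries and 1835, 1865 and 1910 in the cKO libraries. On this scale every cKO library lay below every Ctrl library, and the cKO mean was 81.8% of the Ctrl mean. As a share of all reads in the library, the members took 0.195, 0.219 and 0.223% in Ctrl and 0.193, 0.202 and 0.206% in cKO, so that the groups overlapped and Ctrl replicate 1 lay below cKO replicates 2 and 3. Ctrl replicate 1, which had the lowest of the Ctrl sums, also had the highest neutrophil marker sum of the Ctrl libraries (124). Without that library 47 members were lower and 3 higher, against 25.0% lower and 27.1% higher among all genes. By subunit, the Mrpl sum went from 1534 ± 110 to 1251 ± 29.2 and the Mrps sum from 751 ± 55.7 to 619 ± 16.9 (SD, n = 3 each), log2 ratios of -0.29 and -0.28. The ratio of the Mrpl sum to the Mrps sum was 2.04 ± 0.016 in Ctrl and 2.02 ± 0.060 in cKO, a difference within the spread of the cKO libraries. When libraries were scaled to total reads, the log2 ratios shrank to -0.09 for Mrpl and -0.07 for Mrps.

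The count of called genes by subunit was 27 of 48 lower and 2 higher for Mrpl, and 13 of 29 lower and 2 higher for Mrps. Among all genes 25.0% were lower and 27.7% higher. The medians were -0.37 for Mrpl and -0.31 for Mrps. Gene names do not follow the particle in all cases, since the proteins of *Mrps18a* and *Mrps30* sit in the large subunit and that of *Mrps36* has since been found in the oxoglutarate dehydrogenase complex. Placed by the particle that holds the protein, 29 of 50 large subunit genes and 11 of 26 small subunit genes were lower, beside 25.0% of all genes. Their medians were -0.37 and -0.19. No test of either difference was made. *Mrps18a* fell from 35.9 ± 2.52 to 27.5 ± 1.15 and *Mrps30* from 28.5 ± 1.13 to 19.9 ± 1.93. Both were called lower and count toward the Mrps median but not toward that of the small subunit.

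*Mrpl52*, which encodes a large subunit protein with no bacterial counterpart, showed the largest difference of the 77 genes. It measured 29.3, 37.7 and 28.7 in Ctrl and 5.32, 5.91 and 9.91 in cKO. All cKO libraries lay far below the Ctrl libraries, at 22.1% of the Ctrl mean, although cKO replicate 3 stood above the other 2 (log2 fold change -2.07, SE 0.18, limma adjusted p = 7e-08). Counted from the lowest fold change, it ranked at 62 among the 13426 genes. It was also the member with the highest Ctrl level per kilobase of transcript, 68.9, which became 15.2 in cKO. Leaving *Mrpl52* out moved the log2 ratio of the Mrpl sum from -0.29 to -0.27.

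Among the other Mrpl genes, *Mrpl42* and *Mrpl57* were next. Both encode proteins found only in mitochondrial ribosomes. *Mrpl42* measured 18.2, 21.5 and 25.8 in Ctrl and 10.3, 10.6 and 7.12 in cKO (-1.15, SE 0.17, limma adjusted p = 1.24e-05). *Mrpl57* measured 27.0, 25.0 and 26.6 in Ctrl and 13.4, 11.0 and 11.1 in cKO (-1.09, SE 0.13, limma adjusted p = 1.25e-06). For both genes the highest cKO library lay well below the lowest Ctrl library. *Mrpl41*, another mitochondria-specific subunit, measured 29.9, 28.2 and 29.4 in Ctrl and 15.0, 13.0 and 15.6 in cKO, with a tight spread in each group (-0.96, SE 0.12). *Mrpl14*, the homologue of a bacterial protein at the interface between subunits, went from 18.7 ± 1.33 to 9.82 ± 2.63, and *Mrpl16*, whose bacterial homologue lies near the tRNA binding sites, from 19.5 ± 2.85 to 10.5 ± 1.25. The groups did not overlap for either gene (fold changes -0.90 and -0.83).

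The 6 largest called decreases among Mrps genes were smaller than that of *Mrpl41*. *Mrps21* measured 22.0, 27.0 and 28.9 in Ctrl and 11.5, 13.3 and 16.1 in cKO, so that the cKO mean was 52.3% of the Ctrl mean (-0.89, SE 0.14, limma adjusted p = 4.53e-05). *Mrps24* measured 22.5, 26.8 and 26.2 in Ctrl and 15.6, 13.8 and 14.8 in cKO (-0.73, SE 0.13), and its exons overlap those of *Urgcp*, which was itself lower (-0.42). *Mrps14* measured 44.9, 49.4 and 39.6 in Ctrl and 25.4, 26.6 and 28.4 in cKO (-0.71, SE 0.11). In none of these 3 genes did the groups overlap. *Mrps12*, the homologue of a bacterial protein at the decoding centre, went from 14.0 ± 0.594 to 8.93 ± 0.540, *Mrps17* from 5.67 ± 1.30 to 3.49 ± 0.887 and the mitochondria-specific *Mrps22* from 25.6 ± 3.65 to 17.3 ± 0.695. *Mrps17* was the least certain of the 6, with 27 to 69 reads per library, and lost its call with total-read scaling (limma adjusted p = 0.115), without Ctrl replicate 1 (adjusted p = 0.0550), without Ctrl replicate 2 (0.139) and without cKO replicate 2 (0.162, limma).

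The smallest called decreases were of *Mrpl28* (-0.35), *Mrpl2* (-0.29) and *Mrpl37* (-0.27), and of *Mrps18c* (-0.36) and *Mrps26* (-0.24), all with groups that did not overlap. *Mrps26* measured 58.1, 67.9 and 60.4 in Ctrl and 51.8, 50.9 and 53.9 in cKO, so the gap between its groups was smaller than the range within Ctrl. All 5 lost the call with total-read scaling, and each also lost it without at least 1 library. The limma adjusted p of *Mrpl2* was then 0.0760 (without Ctrl replicate 2), 0.105 (Ctrl 3), 0.0623 (cKO 1) and 0.133 (cKO 3), and that of *Mrps26* 0.124 (Ctrl 2), 0.0883 (cKO 1), 0.0996 (cKO 2) and 0.0578 (cKO 3). For *Mrpl37* it was 0.0642 (Ctrl 2), 0.0599 (cKO 1) and 0.0643 (cKO 3), for *Mrpl28* 0.0664 (cKO 2) and for *Mrps18c* 0.0565 (Ctrl 3). The fold change of *Mrps18c* was -0.15 with a length and GC trend removed and was then not called (limma adjusted p = 0.229). Per kilobase of transcript, the highest Ctrl levels were those of *Mrpl52* (68.9), *Mrpl18* (62.5) and *Mrpl28* (58.4), and among Mrps genes those of *Mrps21* (53.3), *Mrps9* (52.2) and *Mrps18c* (44.5). All 6 of these were lower in cKO, *Mrpl18* with values of 67.3, 75.6 and 85.6 in Ctrl and 48.2, 48.1 and 48.3 in cKO. *Mrpl18* overlaps *Tcp1* on the opposite strand, which was lower too (-0.40). The median Ctrl level per kilobase was 18.7 for Mrpl and 15.8 for Mrps genes. Among the Mrpl genes with the lowest mean normalised reads over all libraries, *Mrpl22* and *Mrpl55* were lower (-0.63 and -0.41), *Mrpl55* without its call when scaled to total reads or without Ctrl replicate 2 (limma adjusted p = 0.0885) or cKO replicate 1 (0.0936) and *Mrpl22* when the length and GC trend was removed (0.0671), whereas *Mrpl32* measured 12.8 ± 2.22 and 12.3 ± 1.09 with overlapping groups. *Mrps36*, with 9 to 39 reads per library the least covered of the 77 genes, measured 2.58 ± 1.26 and 1.40 ± 0.857 and was not called (limma adjusted p = 0.0913). It was called lower with median centring (0.0496), with quantile normalization (0.0310), without Ctrl replicate 1 (0.0203) and without cKO replicate 2 (0.0227, limma).

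Only 4 of the 77 genes were higher. *Mrpl49*, a mitochondria-specific large subunit protein, measured 55.2, 56.5 and 68.4 in Ctrl and 82.3, 86.1 and 83.8 in cKO, with all cKO libraries above Ctrl (0.49, SE 0.093, limma adjusted p = 0.000256). *Mrps18b*, a small subunit protein of the *Mrps18* family, measured 3.35, 3.79 and 3.03 in Ctrl and 5.42, 5.09 and 5.27 in cKO (0.52, SE 0.19, limma adjusted p = 0.0279). *Mrps10* measured 11.3, 13.9 and 11.97 in Ctrl and 18.8, 18.6 and 14.8 in cKO (0.46, SE 0.14, limma adjusted p = 0.0128), the lowest cKO library lying just above the highest Ctrl library. *Mrpl9* measured 68.0, 90.6 and 70.1 in Ctrl and 85.5, 105 and 99.0 in cKO, so its groups overlapped (0.34, SE 0.11, limma adjusted p = 0.0119). Of these 4 genes, *Mrpl49* kept its call under each of the alternatives tried. *Mrpl9*, *Mrps10* and *Mrps18b* each lost theirs with median centring and without 1 of at least 2 libraries: *Mrpl9* without Ctrl replicate 1 (adjusted p = 0.0503), cKO replicate 2 (0.0789) or 3 (0.0519), *Mrps10* without cKO replicate 1 (0.0638) or 2 (0.0600), and *Mrps18b* without Ctrl replicate 3 (0.0866) or cKO replicate 1 (0.0739), 2 (0.0561) or 3 (0.0690, limma). With quantile normalization, *Mrps10* and *Mrps18b* also lost their calls (limma adjusted p = 0.0638 and 0.156). *Mrpl9* lost its call with eBayes without trend (limma adjusted p = 0.0833) and *Mrps18b* with DESeq2 (DESeq2 adjusted p = 0.0761). Exons of *Mrpl49* overlap those of *Syvn1* on the opposite strand, which was lower, 229 ± 30.2 in Ctrl and 138 ± 8.30 in cKO. Exons of *Mrpl9* overlap those of *Oaz3*, which was itself higher, 0.391 ± 0.0562 in Ctrl and 1.55 ± 0.563 in cKO (0.85, limma adjusted p = 0.00353).

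**Figure D2:**
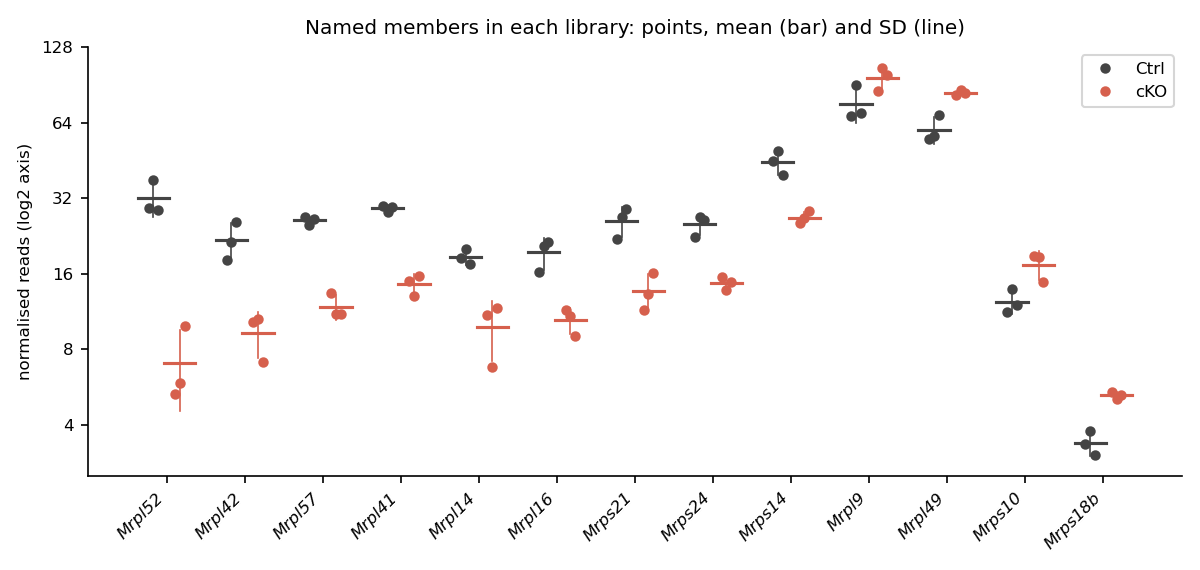
Normalised reads (vertical axis, log2 scale) of 13 members in each Ctrl (grey) and cKO (red) library, with the mean as a bar and the SD as a vertical line. From Mrpl52 to Mrps14 the cKO libraries lie below all Ctrl libraries, and for Mrpl49, Mrps10 and Mrps18b they lie above them; the groups of Mrpl9 overlap.

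Promoter sequences were available for 68 of the 77 genes, as 74 windows of the RefSeq annotation of GRCm38.p6 that run from 250 bases before to 50 bases after a transcript start. Nuclear respiratory factor 1 (NRF1) and the ETS protein GABP, also called NRF2, are textbook regulators of nuclear genes for mitochondrial proteins. An ETS motif (CCGGAAG, on either strand) was found in 35.1% of the members' windows, in 17.4% of the windows of genes with a row and in 8.86% of all windows. The NRF1 motif (GCGCA, any base, then GCGC) was in 17.6%, 9.82% and 4.60%, and a YY1 motif (AAGATGGCG) in 9.46%, 2.94% and 1.40%. An E-box (CACGTG) was in 8.11%, 9.92% and 7.15%, and a GC box (GGGCGG) in 52.7%, 60.8% and 35.7%. None of these motifs contains another of them. Of 26 members with an ETS motif 19 were lower and 1 was higher (median -0.44), and of 42 without one 19 were lower and 3 higher (-0.29). Of 13 members with an NRF1 motif 8 were lower and 1 was higher, and of 55 without one 30 were lower and 3 higher. Among other genes with a row and a window, 27.9% of 2031 with an ETS motif were lower and 25.8% higher, against 24.3% and 29.7% of 8094 without one, and 27.1% of 1157 with an NRF1 motif were lower and 26.8% higher, against 24.8% and 29.2% of 8968 without one. No test of these differences was made. A match of letters is a description of the window and says nothing of a protein bound there.

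The 100 bases before the start are given, 5′ to 3′ on the strand of the gene, for the members with the 3 largest decreases among Mrpl genes and the 2 largest among Mrps genes, and for the 2 members with the largest increases. Capitals mark an ETS motif in *Mrpl52* and an NRF1 motif in *Mrpl57* and *Mrps21*, while *Mrpl42* and *Mrps24* were strongly reduced and have neither motif in this stretch. The stretches are chr14:54426809-54426908 (plus strand), chr10:95501950-95502049 (minus), chr14:57826139-57826238 (plus), chr3:95871515-95871614 (minus), chr11:5707702-5707801 (minus), chr19:6057756-6057855 (minus) and chr17:35916441-35916540 (minus), in this order. The stretches of *Mrpl42*, *Mrps24*, *Mrpl49* and *Mrps18b* hold GC boxes and none of the other 4 motifs. Elsewhere in their promoter windows, *Mrpl42* and *Mrps24* have a YY1 motif and *Mrps18b* has an ETS motif. *Mrps18b* is thus the member with an ETS motif that was called higher.
Mrpl52: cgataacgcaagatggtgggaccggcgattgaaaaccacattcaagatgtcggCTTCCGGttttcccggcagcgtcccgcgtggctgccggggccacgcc
Mrpl42: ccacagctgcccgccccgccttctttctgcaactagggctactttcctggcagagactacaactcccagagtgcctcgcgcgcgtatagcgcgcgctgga
Mrpl57: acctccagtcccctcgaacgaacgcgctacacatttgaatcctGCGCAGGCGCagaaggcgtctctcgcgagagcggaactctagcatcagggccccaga
Mrps21: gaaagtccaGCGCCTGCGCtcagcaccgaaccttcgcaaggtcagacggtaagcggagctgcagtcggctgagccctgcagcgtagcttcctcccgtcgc
Mrps24: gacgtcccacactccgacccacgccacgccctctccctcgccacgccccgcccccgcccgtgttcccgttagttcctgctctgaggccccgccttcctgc
Mrpl49: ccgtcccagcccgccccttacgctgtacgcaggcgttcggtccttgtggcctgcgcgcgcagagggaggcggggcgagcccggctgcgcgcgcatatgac
Mrps18b: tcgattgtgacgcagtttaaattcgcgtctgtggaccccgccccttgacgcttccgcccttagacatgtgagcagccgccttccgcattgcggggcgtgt
The first base of the ETS motif of *Mrpl52* lies at position -47 and those of the NRF1 motifs of *Mrpl57* and *Mrps21* at -57 and -91, counted on the gene's strand from the start that the promoter window uses. For *Mrpl57* that start lies 11 bases inside the annotated gene, so the last 11 bases of its stretch are within the gene, and for the others it is the gene's first base.

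The *Mrps18* genes are 3 relatives of one bacterial protein, each of which sits at its own place in the particle. *Mrps18a* and *Mrps18c* were lower (-0.37 and -0.36) and *Mrps18b* was higher (0.52). In Ctrl, *Mrps18c* had a level per kilobase of 44.5 and *Mrps18b* one of 3.14, so the member that was higher was also the scarcest of the 3.

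Members were also grouped by position and descent, with 25.0% lower and 27.7% higher among all genes as the background for each count. Of 5 proteins of the stalk that recruits translation factors and its base, 4 were lower, namely *Mrpl10*, *Mrpl12*, *Mrpl53* and *Mrpl54* (-0.48, -0.40, -0.44 and -0.64), and *Mrpl11* was not called (-0.09). Of 8 proteins around the exit tunnel, 2 were lower, namely *Mrpl22* (-0.63) and *Mrpl44* (-0.41), a share equal to the background, and the median was -0.18. Of 4 proteins of the central protuberance 2 were lower. Of 28 large subunit proteins listed with a homologue in the bacterial ribosome 13 were lower and 1 higher (median -0.32). Of 19 listed without one 13 were lower and 1 higher (-0.44). In the small subunit the order was the opposite. There 8 of 16 proteins listed with such a homologue were lower and 1 higher (-0.34), and 3 of 9 listed without one were lower and 6 not called (-0.06). The 5 genes *Mrpl55*, *Mrps18a*, *Mrps18b*, *Mrps30* and *Mrps36* were placed in none of these classes of descent. *Mrps18a* and *Mrps18b* were thus left out although they are related to a bacterial protein, while their relative *Mrps18c* was counted. No test of these differences between groups of members was made. *Mrpl58*, a protein related to release factors that frees stalled peptides, was listed without a homologue in the bacterial ribosome and fell from 33.8 ± 4.89 to 19.7 ± 2.65 (-0.75).

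Gene structure was compared next, because short transcripts are common in this family. The longest coding transcript of the members had a median length of 1339 bases (463 to 7300), against 2993 for all genes, and a median of 5 exons. Of the 26 shortest members 17 were lower and 9 were not called, of the 25 in the middle 13 were lower and 4 higher, and of the 26 longest 10 were lower and 16 were not called. Among all genes 25.0% were lower and 27.7% higher. Across the 77 genes, fold change correlated with log2 length at r = 0.28 (rho = 0.28) and with the number of exons at r = 0.34 (rho = 0.36), and hardly with GC content (r = -0.06). These are descriptions across genes that share libraries, and genes are not independent replicates. Over all genes with a known length, r with length was 0.13. Among 4398 other genes with a length between 918 and 2596 bases, a range around the members' median, 25.6% were lower and 25.8% higher, with a median of -0.01. When a smooth trend on length and GC content was removed from every library, 38 members were lower and 5 higher, against 31.3% and 24.2% of all genes with a length, 34 of the 40 lower calls were shared, and r with length among members became -0.02. The sign of 1 called member turned, that of *Mrpl33*, from -0.43 to 0.05, where it was not called (limma adjusted p = 0.743).

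**Figure D3:**
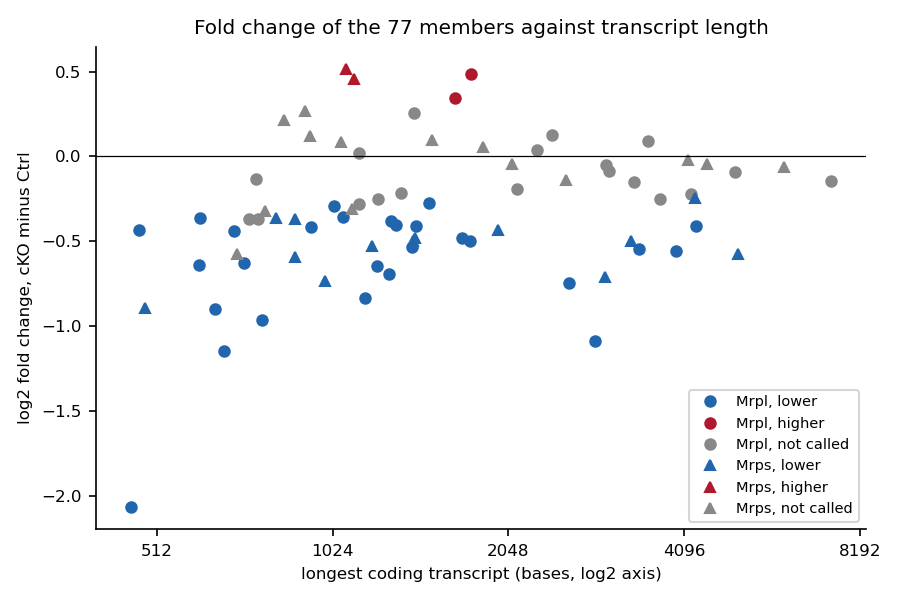
Log2 fold change (cKO minus Ctrl, vertical axis) of the 77 members against the length of the longest coding transcript (bases, log2 axis); circles are Mrpl and triangles Mrps genes, with colours for lower (blue), higher (red) and not called (grey). Members shorter than 1072 bases hold 17 of the 40 lower calls, and Mrpl52 is the lowest point.

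As UPF1 acts in NMD, members were also divided by whether the GENCODE annotation gives them a transcript of the NMD class. Of 19 genes with such a transcript, 10 were lower and 9 were not called (median -0.36), and of 58 without one, 30 were lower and 4 were higher (-0.34). Among the other genes, 19.3% of 3496 with an NMD transcript were lower and 37.4% higher, and 27.3% of 9334 without one were lower and 25.1% higher. *Mrpl42*, *Mrpl58* and *Mrps14* were the lowest of the genes with an NMD transcript. *Mrps34*, also with an NMD transcript, was above Ctrl in all 3 cKO libraries without being called (0.27, limma adjusted p = 0.0660). It shares exon positions with *Mapk8ip3* on the opposite strand, which was much higher (82.0 ± 10.4 and 245 ± 0.419). In all, 32 members had exons that overlap those of another gene, of which 17 were lower and 3 higher, and 45 did not, of which 23 were lower and 1 was higher, each beside a background of 25.0% lower and 27.7% higher. Whether counting used strand was not given in the sources used here, and strand does not separate genes that overlap on the same strand, so the values of the 32 are uncertain.

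Many members start next to a gene on the other strand. In 17 pairs the start of a coding gene with a row lay within 1000 bases on the opposite strand, pointing away. Among these, 10 members were lower, and of their partners 6 were higher, 1 was lower and 3 were not called. Over all 17 pairs 7 partners were higher (41.2%) and 3 lower (17.6%), against 27.7% and 25.0% of all genes, and no test of these shares was made. *Mrpl41* (-0.96) lay 935 bases from *Pnpla7* (1.28), *Mrpl40* (-0.69) 175 bases from *Hira* (0.50), and *Mrpl54* (-0.64) 26 bases from *Apba3* (0.41). *Mrps12* (-0.59) shares its start region with *Sars2*, the mitochondrial seryl-tRNA synthetase (0.39). The partner that was lower was *Ncapd2* (-0.40), next to *Mrpl51* (-0.54). Conversely, *Mrpl49* (0.49) lay 59 bases from *Fau*, a ribosomal protein fusion gene (-0.55). Across the 17 pairs the fold changes of the partners correlated at r = -0.49 (rho = -0.41), a description over pairs within the same libraries.

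Other genes for the mitochondrial ribosome and its supply were read from lists. Of 5 mitochondrial ribosomal proteins with other names, *Ptcd3* and *Aurkaip1* were higher (0.75 and 0.70), *Dap3* and *Gadd45gip1* were lower (-0.36 and -0.33) and *Chchd1* was not called (-0.31). *Ptcd3* went from 68.8 ± 1.71 to 116 ± 8.19, a rise larger than that of any of the 77 genes. Of 26 assembly factors 8 were higher and 4 lower. The rRNA methyltransferase gene *Mrm1* rose from 21.3 ± 2.63 to 61.0 ± 2.77 (1.48), the assembly factor genes *Mettl17* and *Rcc1l* by 0.97 and 0.91 and the pseudouridine synthase gene *Trub2* by 0.90, whereas the helicase gene *Ddx28* fell (-0.82). Of 14 translation factors with a row 4 were higher, led by the release factor gene *Mtrf1l* (19.5 ± 2.44 and 51.9 ± 1.62, 1.37), with *Guf1* (0.59) and *Mtrf1* (0.54), and 2 were lower, among them *Tufm*, the mitochondrial elongation factor Tu (82.1 ± 9.95 and 53.9 ± 2.56, -0.59). These shares, 30.8% higher and 15.4% lower for assembly factors and 28.6% and 14.3% for translation factors, lay near the background of 27.7% higher and somewhat below that of 25.0% lower. With total-read scaling, 12 assembly factors were higher and 1 lower, and 4 translation factors were higher and 1 lower, against 38.5% higher and 14.4% lower among all genes.

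Of 21 genes for mitochondrial DNA transcription and RNA maintenance 5 were higher (23.8%) and 6 lower (28.6%), close to the background of 27.7% and 25.0%, and total-read scaling turned these counts into 11 and 2. *Polg2*, the accessory subunit of the mitochondrial DNA polymerase, *Supv3l1*, a helicase of RNA decay, and *Mtpap*, the poly(A) polymerase, were higher (1.35, 1.10 and 0.76), and *Mterf1b* was lower (-0.75). Of 28 import genes 12 were lower and 3 higher, or 6 and 6 with total-read scaling, with *Timm17b* (-1.08), *Tomm6* (-0.82), *Timm8b* (-0.61) and *Timm10b* (-0.53) changed most. Of 11 transcriptional regulators 4 were lower (36.4%, against 25.0% of all genes) and 7 were not called. Those lower were *Esrra* (-0.39), *Gabpa* (-0.34), *Nrf1* (-0.33) and *Gabpb2* (-0.30), and *Myc* (0.12) and *Yy1* (0.04) were among the others. With total-read scaling none of these 4 calls was kept and 3 of the regulators were higher (limma). Over these lists and that of genes encoded on mitochondrial DNA, 22 of 107 genes were higher (20.6%) and 30 lower (28.0%). Scaling to total reads turned these counts into 38 (35.5%) and 10 (9.35%), and it turned the shares of all genes to 38.5% and 14.4%, so the turn is not particular to these lists. Of the genes encoded on mitochondrial DNA only both ribosomal RNAs had a row. The small rRNA *mt-Rnr1* measured 116, 125 and 778 in Ctrl and 70.3, 207 and 86.1 in cKO, and the large rRNA *mt-Rnr2* measured 586, 593 and 1329 in Ctrl and 478, 571 and 540 in cKO. Ctrl replicate 3 stood apart from the other 5 libraries in both, and neither was called (limma adjusted p = 0.434 and 0.307). The libraries had been depleted of ribosomal RNA, which limits what these rows show.

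The mitochondrial ribosomal genes were set beside 2 other families of subunits. Of 85 cytoplasmic ribosomal protein genes 66 were lower and 3 higher (median -0.46), and of 81 respiratory chain subunit genes 63 were lower and 3 higher (-0.63), against 40 and 4 of the 77 members (-0.36) and 25.0% lower and 27.7% higher among all genes. With total-read scaling 44 cytoplasmic ribosomal protein genes, 48 respiratory chain genes and 24 members were lower, against 14.4% of all genes. The order of the medians depended on scaling, since with quantile normalization that of the members was -0.45 and that of the cytoplasmic ribosomal proteins -0.38. As a percentage of the Ctrl mean, the summed level in the cKO libraries was 80.5, 80.4 and 83.8% for Mrpl, 79.9, 84.1 and 83.3% for Mrps, 73.4, 75.1 and 76.0% for cytoplasmic ribosomal proteins and 62.8, 64.9 and 63.5% for the respiratory chain. On this scale the respiratory chain was lowest and the mitochondrial ribosome highest of these families in each cKO library. In all of these families Ctrl replicate 1 was the lowest Ctrl library, at 92.4, 91.9, 91.6 and 91.1% of the Ctrl mean. The difference between families was not tested.

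**Figure D4:**
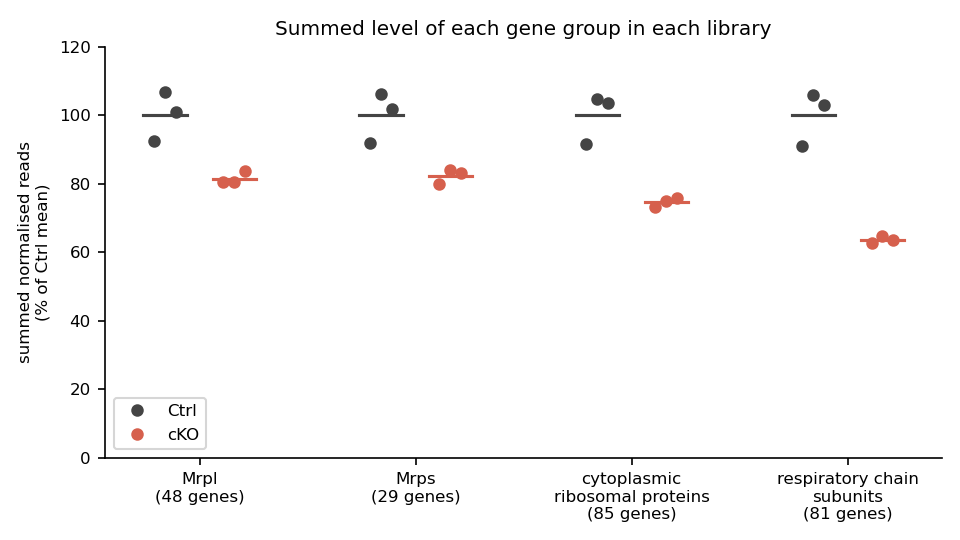
Summed normalised reads of 4 gene groups in each library, as a percentage of the Ctrl mean of the group (vertical axis from 0), with points for libraries and a bar for the group mean. The cKO libraries (red) lie below the Ctrl libraries (grey) in every group, near 80 to 84% for the mitochondrial ribosomal genes and near 63 to 65% for the respiratory chain.

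There were 22 members called lower in the main comparison and under each alternative. The share of all genes called lower under every alternative was not computed, so this count has no background beside it. They were *Mrpl3*, *Mrpl10*, *Mrpl14*, *Mrpl16*, *Mrpl18*, *Mrpl30*, *Mrpl40*, *Mrpl41*, *Mrpl42*, *Mrpl43*, *Mrpl51*, *Mrpl52*, *Mrpl57* and *Mrpl58* in the Mrpl group, and *Mrps9*, *Mrps12*, *Mrps14*, *Mrps21*, *Mrps22*, *Mrps23*, *Mrps24* and *Mrps30* in the Mrps group. *Mrpl43* overlaps *Twnk*, a helicase gene on the opposite strand that was higher (0.36). Exons of *Mrpl3*, *Mrpl10*, *Mrpl14*, *Mrpl18*, *Mrpl51*, *Mrpl58*, *Mrps24* and *Mrps30* also overlap those of another gene.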

How the data were processed

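The authors sorted early LPre-B cells, depleted ribosomal RNA, made directional libraries and sequenced single ends. Per the labels, reads were trimmed with cutadapt 4.0, aligned to mm10 with HISAT2 (unstranded, per the study's methods), counted with featureCounts 2.0.1 and analysed with limma 3.48.0. The annotation used for counting, and whether counting used strand, were not given in the sources used here. The deposited values are a linear signal per gene, identified by Entrez ID: 0.5 was added to the reads, and the sum was scaled to an effective library of 1e6. Whole reads were recovered for 100% of 80556 values within a tolerance of 0.05 read. Every gene in the table exceeded 0.5 in at least 3 libraries. Rows were named from RefSeq (13008) or GENCODE release M21 (3), and 415 stayed unnamed. The depth ranged from 9732498 to 11006834 reads per library, and no member had a library at 0 reads (fewest 9, most 1174).

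The test was two-sided and used limma 3.58.1 (R 4.3.3), fitted to log2(value + 1) with group alone in the model and eBayes set to trend and robust; p-values were adjusted over 13426 genes by the Benjamini-Hochberg method. Fold changes on this scale understate the change of low genes. Sums, medians and counts over members are descriptions without a p. Scripts were tested on simulated data. Alternatives were a replicate block, eBayes without trend, voom, edgeR 4.0.16 (TMM) and DESeq2 1.42.0 on recovered reads, 3 other scalings, a pseudocount of 0.1, a minimum mean log2 value of 3, a trend on length and GC content (known for 12907 genes) removed with mgcv 1.9.3, and leaving out each library. Named per subunit were the 6 lowest and 4 highest fold changes among called genes with groups apart, the 3 highest Ctrl levels per kilobase, the 3 lowest means and all members called higher. In each list, up to 4 genes with the largest called changes were named. Mrps18a, Mrps30, Mrps34, Mrpl33, Mrpl58, Ddx28, Chchd1, Myc, Yy1, the mitochondrial rRNAs, the marker genes, genes given as examples of a structural group, overlapping genes and start-to-start neighbours were named after their values were seen. Members, lists and motifs were chosen with earlier results of these data known. Transcript lengths, exons, NMD classes and overlaps came from GENCODE M21 and promoter windows from RefSeq (GRCm38.p6).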

Additional observations from a re-analysis of the deposited data

How the results depend on the processing

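The medians of both subunits were below 0 under each alternative, and their sums were below 0 with median centring, with total-read scaling and without each library, the alternatives computed for them. With libraries scaled to total reads, 24 members were lower and 8 higher (16 and 4 for Mrpl, 8 and 4 for Mrps), the medians were -0.18 (Mrpl) and -0.13 (Mrps) and the log2 ratios of the sums -0.0895 and -0.0745. With median centring, 1 member was higher (Mrpl 1, Mrps 0), the medians were -0.48 and -0.42 and the sums -0.41 and -0.39. With quantile normalization, 2 members were higher (Mrps 0) and the medians were -0.49 and -0.42. Members called higher numbered 1 for Mrpl without the eBayes trend, and 1 for Mrps with DESeq2 and with the minimum mean. Placing members by particle gave -0.19 for the small subunit. Without each library in turn, 32 to 47 members were lower and 1 to 5 higher (Mrpl 21 to 33 and 1 to 3, Mrps 11 to 14 and 0 to 3). Among all genes those fits called 21.4 to 25.0% lower and 24.0 to 27.1% higher. The lowest count of lower members, 32, was without Ctrl replicate 2, and the highest, 47, without Ctrl replicate 1. The lowest count of higher members, 1, was without cKO replicate 2. The 7 neighbour lists gave 38 higher and 10 lower genes under total-read scaling. Upf1 was not called without the eBayes trend (0.31, limma adjusted p = 0.0707), with median centring (0.20, adjusted p = 0.0645) or with the length and GC trend removed (0.14, adjusted p = 0.204). Mrpl32, not called, changed sign with total reads (0.14) and without Ctrl replicate 2 (0.0511). With the length and GC trend removed, Mrpl33, called lower in the main comparison, changed sign (0.05). The cause of these changes was not tested. Over the named members and all alternatives, 405 values kept their direction and call, 45 lost the call and 4, all of Mrps36, gained it. Replicate numbers were shared by both groups, and equally numbered libraries have adjacent sample numbers in the column headers. Deviations of equally numbered libraries correlated at 0.13, -0.06 and -0.08, and those of the other pairs at -0.20 to 0.26. With 3 libraries per group these values cannot decide whether the libraries were paired, and the main fit used no pairing. With a replicate block 41 members were lower, the 40 of the main comparison among them, and 4 were higher. Depth limits the precision of the members with few reads, and 74 of the 77 had 50 reads or more in every library.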
